A study of Mus musculus with 9 samples.

Results

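The 10 genes described here encode enzymes that clear superoxide and hydrogen peroxide or that conjugate and reduce reactive compounds with glutathione or NADPH. They were chosen by name, with earlier results of these data known, so shares of members set beside shares of all genes are descriptive. The members are Cat, Sod1, Sod2, Gpx1, Gpx3, Gstm1, Gstm2, Prdx3, Nqo1 and Hmox1, which are 10 of the 24062 gene symbols in the deposited count table. All 10 had enough reads to be tested, among 12989 genes that did. RNA was sequenced from the gastrocnemius, a hindlimb calf muscle made mostly of fast fibres, of 3-month-old mice whose background mixed 129Sve with C57BL/6. The mice carried altered alleles of Bub1b, which encodes the mitotic checkpoint protein BubR1, and the study asked how individual BubR1 alleles act in mosaic variegated aneuploidy. There were 3 libraries from hetX753 mice, with the BubR1 genotype +/X753, 3 from hetL1002P mice, with the genotype +/L1002P, and 3 from WT mice. Both carrier genotypes keep 1 unaltered copy of the gene. The labels do not state that each library came from a separate mouse, so p-values measure the spread between libraries, which may be partly technical.

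Muscle fibres generate superoxide in mitochondria and at membranes as they contract. Superoxide dismutases turn superoxide into hydrogen peroxide, Sod1 in the cytosol and Sod2 in the mitochondrial matrix. Catalase in peroxisomes, the glutathione peroxidases and the peroxiredoxins then remove hydrogen peroxide. Glutathione transferases join glutathione to electrophiles, including products of lipid oxidation. Nqo1 and Hmox1 are classic targets of the transcription factor Nrf2, which acts at antioxidant response elements, and the Gstm genes are also among its targets in mouse liver.

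The starts of 4 of the genes are shown, and no result below rests on these sequences. Cat was the member that passed the test. Gstm1 and Gstm2 are nearby genes whose values lay below WT in both carrier genotypes, without passing the test over all 9 libraries. Sod1 was the member whose start region held the letters of an antioxidant response element. Each line is the 250 bases before a RefSeq transcript start in GRCm38.p6, read 5′ to 3′ on the strand of the gene, with matches to the motifs searched in capitals. The windows are chr2:103485154-103485403 on the minus strand for Cat, chr16:90220512-90220761 on the plus strand for Sod1, chr3:108017819-108018068 on the minus strand for Gstm1 and chr3:107986421-107986670 on the minus strand for Gstm2.
Cat: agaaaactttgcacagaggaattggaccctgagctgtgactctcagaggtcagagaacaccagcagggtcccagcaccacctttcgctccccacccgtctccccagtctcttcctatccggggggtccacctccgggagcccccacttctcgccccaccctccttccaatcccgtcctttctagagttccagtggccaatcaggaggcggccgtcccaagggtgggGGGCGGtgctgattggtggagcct
Sod1: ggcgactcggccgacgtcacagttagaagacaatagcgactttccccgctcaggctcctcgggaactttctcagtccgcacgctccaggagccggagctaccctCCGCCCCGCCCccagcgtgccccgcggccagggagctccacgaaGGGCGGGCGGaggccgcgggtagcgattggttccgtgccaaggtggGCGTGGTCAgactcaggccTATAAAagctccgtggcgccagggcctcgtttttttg
Gstm1: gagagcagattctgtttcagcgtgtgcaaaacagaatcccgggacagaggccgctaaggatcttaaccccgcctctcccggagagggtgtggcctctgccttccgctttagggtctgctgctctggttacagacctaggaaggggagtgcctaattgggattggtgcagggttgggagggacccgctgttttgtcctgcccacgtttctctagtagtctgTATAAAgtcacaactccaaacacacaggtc
Gstm2: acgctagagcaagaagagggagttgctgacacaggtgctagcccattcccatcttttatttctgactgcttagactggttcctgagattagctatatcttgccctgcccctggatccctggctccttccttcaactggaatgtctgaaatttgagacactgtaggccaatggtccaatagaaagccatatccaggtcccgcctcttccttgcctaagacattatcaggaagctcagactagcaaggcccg

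The motifs were searched on both strands: TGACNNNGC for the core of the antioxidant response element, a perfect direct repeat spaced by 1 base for the peroxisome proliferator response element, GGGCGG for the GC box and TATAAA for the TATA box. In the Cat window the capitals mark a GC box 24 to 19 bases before the start. In the Sod1 window they mark, in order, a pair of overlapping GC boxes on the opposite strand, another overlapping pair on the gene's strand, the antioxidant response element letters on the opposite strand 56 to 48 bases before the start, and a TATA box 37 to 32 bases before it. The Gstm1 window held a TATA box 30 to 25 bases before the start, and a second Gstm1 start in RefSeq had no match. The Gstm2 window had no match. Over 32851 windows of the same length, 10.2% held the antioxidant response element letters, 32.7% a GC box, 12.4% a TATA box and 0.0335% the perfect peroxisome proliferator element. Of the 9 members with an entry, 1 held the antioxidant response element letters, and Hmox1 had no entry. A match is a description of the letters in the window and says nothing about binding.

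Total counts were 19768149 to 33977252 per library. Levels are given as CPM, the count of a gene relative to its library's total, with totals scaled by the TMM method, which sets libraries to a common median gene. A gene passed the test at an adjusted p under 0.05 from edgeR's quasi-likelihood test with Benjamini-Hochberg adjustment over all tested genes, and adjusted p-values below come from that test unless another tool is named. On the leading principal component of all genes, which held 38.6% of the variance, WT 3 at -50.9 and hetL1002P 3 at -35.0 lay apart from the other 7 libraries, at -9.47 to 30.8. WT 3 had the highest level of 7 of the 10 members (Sod1, Gpx1, Gpx3, Gstm1, Gstm2, Prdx3 and Nqo1), while it was the highest library for 22.9% of all tested genes. It also had the lowest level of Cat. All 7 markers of skeletal muscle fibres had counts in the table, and their summed level was 164177 to 180388 CPM in hetX753 libraries, 176952 to 197384 CPM in hetL1002P libraries and 199868 to 222192 CPM in WT libraries. The fibre sum was thus lower in every hetX753 and hetL1002P library than in any WT library, although none of these markers passed the test. Its members did not move alike: Acta1, skeletal actin, averaged 36709 CPM in hetX753, 43382 CPM in hetL1002P and 51554 CPM in WT, while Myh4, the main fast myosin, averaged 55117 CPM in hetX753, 57527 CPM in hetL1002P and 52875 CPM in WT. Actn3, the fast-fibre actinin, averaged 13599 CPM in hetX753, 10920 CPM in hetL1002P and 12445 CPM in WT. The part of the fibre sum in the differences below was not tested. In bulk muscle, fewer cells of a type and less RNA per cell cannot be told apart.

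Compared per kilobase of transcript, the members spanned a wide range of levels. Over the 9 libraries Sod1 averaged 254.5 CPM per kb, Gstm1 146 CPM per kb, Prdx3 138 CPM per kb and Gpx3 106 CPM per kb. Gstm2 followed at 63.2 CPM per kb, Gpx1 at 56.3 CPM per kb and Sod2 at 42.3 CPM per kb. The ranges of neighbours in this order overlapped from Sod1 down to Sod2, so those steps do not stand apart from the spread of the libraries. On this length, Cat at 25.2 CPM per kb, Nqo1 at 14.8 CPM per kb and Hmox1 at 4.59 CPM per kb each lay below the whole range of the gene before it. The order depends on the length used. Counted over all annotated exons of a gene, Cat at 25.2 CPM per kb was above Sod2 at 24.8 CPM per kb, and Gpx1 at 41.9 CPM per kb was above Gstm2 at 40.02 CPM per kb. For Sod1, the main transcript has 0.641 kb and all annotated exons together 3.970 kb, and on the longer measure it took place 5 at 41.1 CPM per kb, with Prdx3 at the top.

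**Figure D1:**
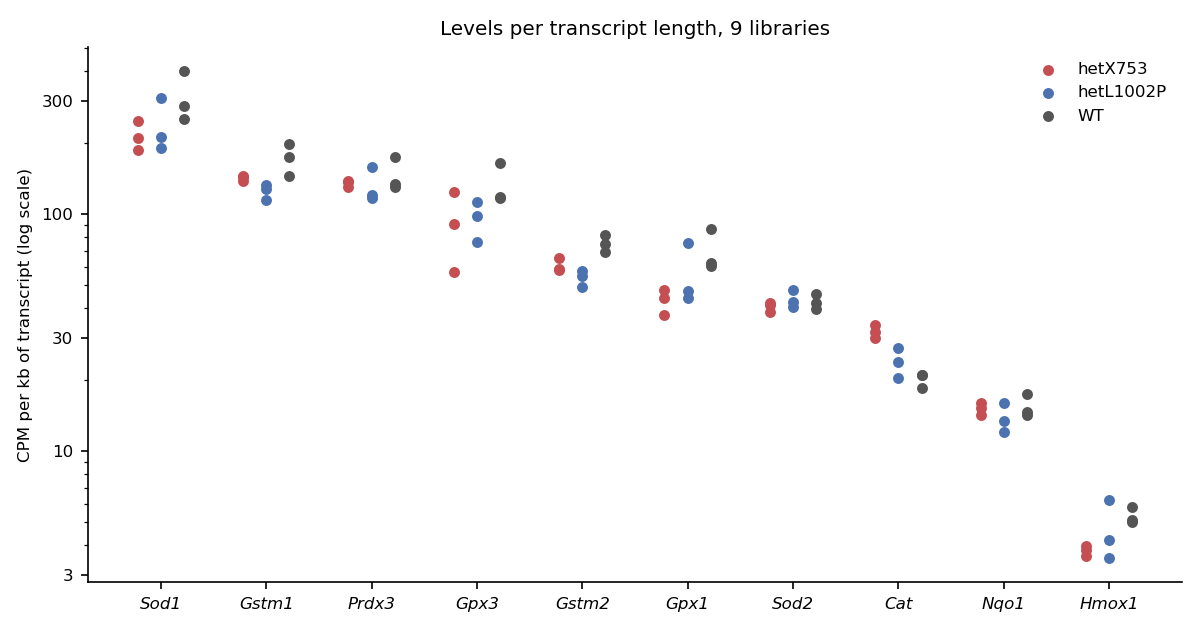
Level of each of the 10 enzymes per kilobase of transcript, in CPM per kb on a log axis, with 1 point per library for hetX753, hetL1002P and WT. The 7 genes from Sod1 to Sod2 overlap their neighbours, and Cat, Nqo1 and Hmox1 step down without overlap, although Cat averages above Sod2 (25.2 against 24.8 CPM per kb) when all annotated exons set the length.

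Cat encodes catalase, which breaks down hydrogen peroxide in peroxisomes, and lies on chromosome 2 at 103453849 to 103485160 on the minus strand (GRCm38). It rose in hetX753 muscle. Its level was 78.1, 82.7 and 88.5 CPM in hetX753 libraries, 62.2, 70.9 and 53.2 CPM in hetL1002P libraries, and 54.6, 54.5 and 48.3 CPM in WT libraries. The 3 hetX753 libraries were above every other library, while 1 hetL1002P library lay inside the WT range. The log2 fold change of hetX753 over WT was 0.66 (SE 0.12, 95% interval 0.39 to 0.93; adjusted p = 0.0487), a 1.58-fold higher level. Of the 10 members 1 was thus called in this comparison, against 0.508% of all tested genes (66 genes) in either direction and 0.331% in the higher direction. The members were chosen with earlier results of these data known, so these shares are only a description. Cat ranked 66 by p among all genes, the last gene within the threshold. The call was lost in 5 of 12 other settings, with adjusted p from 0.0529 to 0.0927 there, and without any 1 of 7 libraries (adjusted p 0.101 to 0.243, listed in the closing section); the log2 fold change stayed between 0.61 and 0.78 throughout.

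For hetL1002P over WT the log2 fold change of Cat was 0.24 (SE 0.12, 95% interval -0.03 to 0.51; adjusted p = 0.579). Set directly against each other, hetX753 over hetL1002P gave 0.42 (SE 0.12, 95% interval 0.15 to 0.69; adjusted p = 0.34). The libraries of the 2 carrier genotypes did not overlap for Cat, yet the difference did not pass the test, where Cat ranked 227 by p. Cat and Bub1b lie on the same chromosome, 15.11 Mb apart. The part of linked alleles from the mixed background was not tested.

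**Figure D2:**
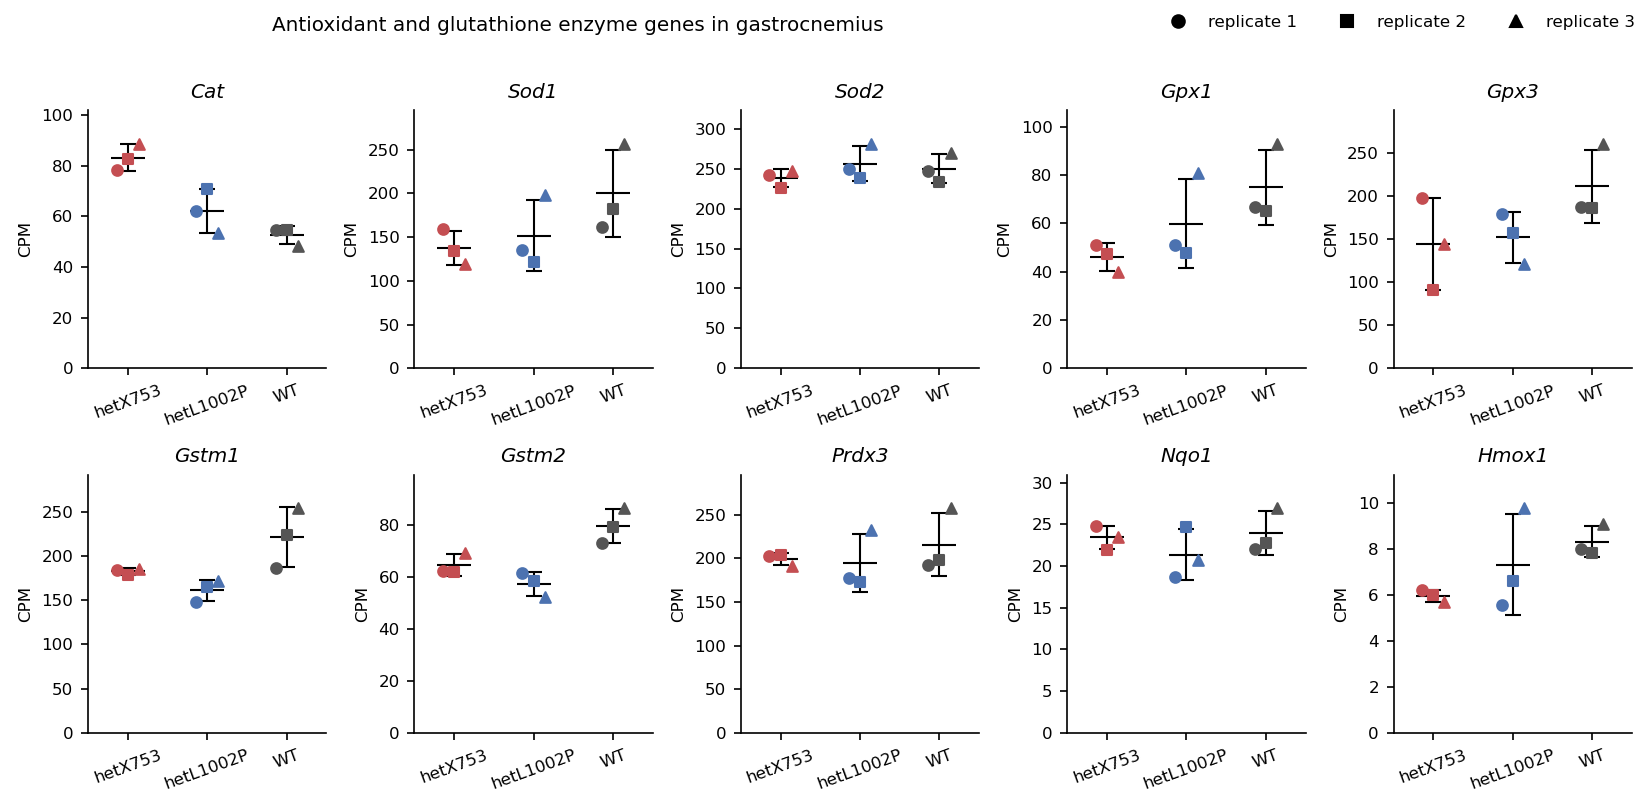
CPM of each enzyme in every library, with hetX753, hetL1002P and WT from left to right in each panel, points for libraries (shape by replicate number), a horizontal line at the group mean and bars of 1 SD. The hetX753 points for Cat, at 78.1 to 88.5 CPM, sit above all others, and WT 3 holds the top point in 7 of the 10 panels.

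The superoxide dismutases did not pass the test on genotype over all 9 libraries in any comparison. Sod1, the cytosolic copper-zinc enzyme on chromosome 16 at 90220754 to 90226329, had 159, 134 and 120 CPM in hetX753 libraries, 135, 121 and 198 CPM in hetL1002P libraries, and 162, 182 and 256 CPM in WT libraries. The hetX753 libraries were below every WT library, by a small gap between 159 and 162 CPM, and hetL1002P 3 lay within the WT range. The log2 fold change was -0.54 for hetX753 over WT (SE 0.22, 95% interval -1.02 to -0.06; adjusted p = 0.202) and -0.40 for hetL1002P over WT (SE 0.22, 95% interval -0.88 to 0.08; adjusted p = 0.579). Without WT 3 these values were -0.32 and -0.18. Same-numbered WT and hetL1002P libraries deviated together, and with replicate number as a block on these genotypes alone edgeR called Sod1 lower in hetL1002P, at -0.42 (adjusted p = 0.0395, where 5.01% of genes passed and 2.37% were lower), a call lost without any 1 of the 3 pairs. Sod2, the manganese enzyme of the mitochondrial matrix on chromosome 17 at 13006846 to 13040063, was among the steadiest members. It had 242, 226 and 247 CPM in hetX753 libraries, 249.8, 238 and 281 CPM in hetL1002P libraries, and 247, 234 and 269 CPM in WT libraries. All 3 groups overlapped, with a log2 fold change of -0.07 for hetX753 over WT (95% interval -0.31 to 0.17; adjusted p = 0.736) and 0.04 for hetL1002P over WT (95% interval -0.21 to 0.28; adjusted p = 0.908). With each library's trend of level on transcript length and GC content removed, Sod2 was at -0.35 for hetX753 over WT (adjusted p = 0.325) and -0.20 for hetL1002P over WT.

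Among the enzymes that remove hydrogen peroxide with glutathione or thioredoxin, Gpx1 had the lowest log2 fold change of the 10 members in hetX753 over WT. Gpx1, the cytosolic selenium enzyme on chromosome 9 at 108338903 to 108340343, had 51.3, 47.3 and 40.02 CPM in hetX753 libraries, 50.9, 47.6 and 81.1 CPM in hetL1002P libraries, and 66.8, 65.0 and 92.9 CPM in WT libraries. All hetX753 libraries were below all WT libraries, and hetL1002P 3 was above 2 of the 3 WT libraries. The log2 fold change of hetX753 over WT was -0.70 (SE 0.21, 95% interval -1.17 to -0.22), a 1.62-fold lower mean, with an adjusted p of 0.138 that missed the threshold. Gpx1 passed with DESeq2 (adjusted p = 0.0495, where 5.63% of genes passed and 2.22% were lower), in edgeR without both WT 3 and hetL1002P 3 (adjusted p = 0.0416, where 2.58% of genes passed) and in edgeR without hetL1002P 3 (adjusted p = 0.0322, where 5.07% of genes passed). It did not pass with limma-voom or with the length and GC trend removed, where it was at -0.40 (adjusted p = 0.148). For hetL1002P over WT the log2 fold change was -0.32 (SE 0.21; adjusted p = 0.593), and it was -0.0654 with the trend removed and -0.14 without WT 3. The replicate block on these genotypes alone called Gpx1 lower in hetL1002P, at -0.36 (adjusted p = 0.044, where 5.01% of genes passed and 2.37% were lower). This call was lost when any pair was left out and when the length and GC trend was also removed.

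Gpx3, the secreted glutathione peroxidase on chromosome 11 at 54902453 to 54910377, varied widely within hetX753. It had 198, 90.9 and 145 CPM in hetX753 libraries, 179, 157 and 121 CPM in hetL1002P libraries, and 188, 186 and 261 CPM in WT libraries. The hetX753 coefficient of variation was 37.0%, and hetX753 1 lay inside the WT range, whereas all hetL1002P libraries were below all WT libraries. The log2 fold change was -0.55 for hetX753 over WT (SE 0.26; adjusted p = 0.253) and -0.47 for hetL1002P over WT (SE 0.26; adjusted p = 0.579). With the length and GC trend removed these were -0.32 and -0.24, and without both WT 3 and hetL1002P 3 they were -0.37 and -0.15. The biological coefficient of variation in the fit was 22.8% for Gpx3, against a median of 16.3% over all genes and 11.3% for Gstm2, the steadiest member. Prdx3, the mitochondrial peroxiredoxin on chromosome 19 at 60864051 to 60874556, had 203, 204 and 192 CPM in hetX753 libraries, 178, 173 and 233 CPM in hetL1002P libraries, and 192, 198 and 258 CPM in WT libraries. Its groups overlapped, with log2 fold changes of -0.11 for hetX753 over WT (adjusted p = 0.685) and -0.15 for hetL1002P over WT (adjusted p = 0.698).

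Gstm1 and Gstm2 encode mu-class glutathione transferases and lie close together on the minus strand of chromosome 3, at 108012255 to 108017973 and 107981702 to 107986453. Gstm1 had 184, 178 and 186 CPM in hetX753 libraries, 148, 165 and 171 CPM in hetL1002P libraries, and 186, 225 and 254 CPM in WT libraries. The hetL1002P libraries were the lowest of the 3 genotypes, and the highest hetX753 library was just below the lowest WT library. Gstm2 had 62.4, 62.0 and 69.4 CPM in hetX753 libraries, 61.3, 58.5 and 52.3 CPM in hetL1002P libraries, and 73.3, 79.2 and 86.4 CPM in WT libraries. For Gstm2 the 3 genotypes also formed 3 groups without overlap, with hetL1002P lowest and WT highest. Their log2 fold changes for hetL1002P over WT were -0.46 for Gstm1 (SE 0.13, 95% interval -0.74 to -0.18) and -0.47 for Gstm2 (SE 0.11, 95% interval -0.72 to -0.23), both with an adjusted p of 0.579. By unadjusted p Gstm1 and Gstm2 ranked 26 and 9 among all tested genes in that fit over all libraries. The replicate block on these genotypes alone called both lower in hetL1002P, Gstm1 at -0.46 (adjusted p = 0.033) and Gstm2 at -0.48 (adjusted p = 0.0368). In that block fit 5.01% of genes passed and 2.37% were lower. Both calls were lost when any pair was left out and when the length and GC trend was also removed. For hetX753 over WT the log2 fold changes were -0.28 for Gstm1 (SE 0.13; adjusted p = 0.239) and -0.30 for Gstm2 (SE 0.11; adjusted p = 0.178). Between the carriers, hetX753 over hetL1002P gave 0.18 for Gstm1 (95% interval -0.10 to 0.46; adjusted p = 0.792) and 0.17 for Gstm2 (95% interval -0.07 to 0.41; adjusted p = 0.769).

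Several members depended on how transcript length and GC content were treated, among them Sod2, Gpx1, Gpx3, Hmox1 and both Gstm genes. With that trend removed, the log2 fold changes for hetX753 over WT were -0.00 for Gstm1 and -0.01 for Gstm2 (adjusted p = 0.986 and 0.978), and for hetL1002P over WT -0.21 for both. Cat was 0.71 for hetX753 over WT in the same fit (adjusted p = 0.0264, where 0.635% of genes passed). Of the 50-base stretches of the annotated transcripts, 18.9% in Gstm1 and 5.65% in Gstm2 also occur in other genes, so reads there are uncertain. Gstm3, which shares 124 of these stretches with Gstm1, had 0 to 1 counts per library. Gstm2-ps1, which shares 215 with Gstm1, and Gm8834, which shares 89, were not in the count table under those names, so their reads cannot be judged.

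Nqo1 and Hmox1, both on chromosome 8, did not pass the test. Nqo1, a quinone reductase at 107388225 to 107403206, had 24.8, 21.98 and 23.5 CPM in hetX753 libraries, 18.7, 24.7 and 20.7 CPM in hetL1002P libraries, and 22.04, 22.8 and 26.9 CPM in WT libraries. The groups overlapped, and the log2 fold change was -0.03 for hetX753 over WT (95% interval -0.32 to 0.27; adjusted p = 0.922) and -0.16 for hetL1002P over WT (95% interval -0.45 to 0.13; adjusted p = 0.65). Hmox1, which breaks down haem and is abundant in macrophages, lies at 75093621 to 75100589 and was the member with the fewest reads, 123 to 271 counts per library. It had 6.22, 6.00 and 5.68 CPM in hetX753 libraries, 5.55, 6.61 and 9.77 CPM in hetL1002P libraries, and 8.02, 7.85 and 9.09 CPM in WT libraries. The hetX753 libraries were below all WT libraries, with a log2 fold change of -0.48 (SE 0.20, 95% interval -0.92 to -0.04; adjusted p = 0.217), while the hetL1002P libraries spread across and beyond the WT range. With the length and GC trend removed Hmox1 was at -0.26 for hetX753 over WT (adjusted p = 0.409), and for hetL1002P over WT it was -0.19 as reported and -0.0113 with the trend removed. Of 10 macrophage markers 9 were in the table, all with counts, and their summed level was 86.5 to 92.7 CPM in hetX753 libraries, 76.6 to 150 CPM in hetL1002P libraries and 80.2 to 137 CPM in WT libraries. The library with the highest Hmox1, hetL1002P 3, had the lowest macrophage sum. The sums of WT 2 and WT 3, at 137 and 136 CPM, were above every hetX753 library, and that of WT 1, at 80.2 CPM, was below them. The part of macrophages in the Hmox1 values was not tested.

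**Figure D3:**
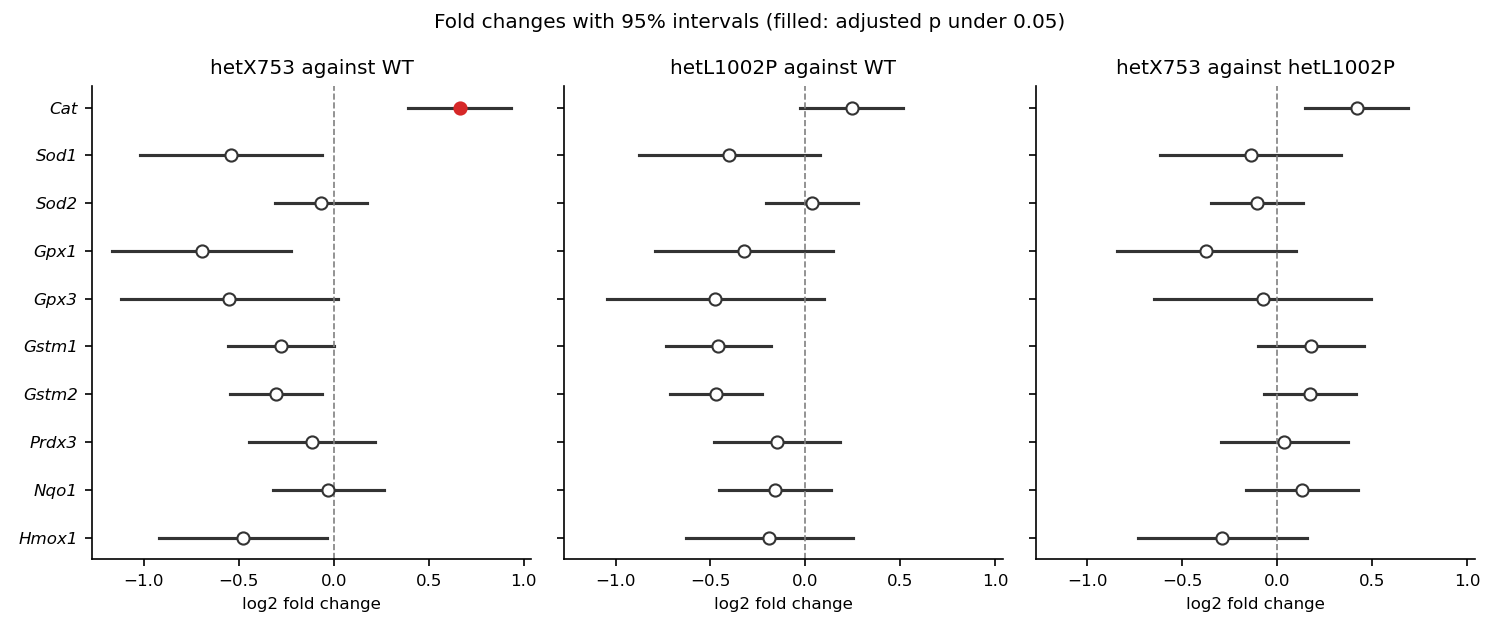
Log2 fold change of each enzyme with its 95% interval for hetX753 over WT, hetL1002P over WT and hetX753 over hetL1002P, from edgeR. Cat, at 0.66 in hetX753 over WT, is the point that passed the adjusted threshold, and Gpx1 at -0.70 is the lowest point in that comparison.

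Read over the list, hetX753 muscle had 1 member higher (Cat), 0 lower and 9 that did not pass. The 9 others all had a log2 fold change below 0. An unadjusted p under 0.05 was found for 5 of the 10 members, beside 20.9% of all tested genes in either direction. These were Cat, which was higher, and 4 that were lower (Sod1, Gpx1, Gstm2 and Hmox1). Library ranges did not overlap for 5 members lower in hetX753 (Sod1, Gpx1, Gstm1, Gstm2 and Hmox1), against 15.8% of tested genes, and for 1 member higher, against 16.7% (32.5% in either direction). The median log2 fold change was -0.29, beside 0.00 over all genes, and 6 of 10 were below 0 when library totals were the only scaling, because Sod2, Prdx3 and Nqo1 changed sign there. That scaling moved the median gene by 0.12. With the length and GC trend removed the median was -0.13, and without both WT 3 and hetL1002P 3 it was -0.20, with 7 of 10 below 0 in each.

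In hetL1002P over WT none of the 10 members passed edgeR's test, where 0% of genes did, and 2 (Gstm1 and Gstm2) had an unadjusted p under 0.05, as did 7.96% of all tested genes. DESeq2 and limma-voom also called 0 members. The median was -0.26, beside 0.01 over all genes, with 8 of 10 members below 0. Library ranges did not overlap for 3 members, all lower in hetL1002P (Gpx3, Gstm1 and Gstm2), against 3.77% of tested genes in that direction, 5.67% in the higher direction and 9.44% in either. With replicate number as a block on these genotypes alone, 4 members were called lower, against 2.37% of genes called lower and 5.01% called in either direction. These were Gstm1, Gstm2, Sod1 and Gpx1, with the values given above. None of the 4 passed when any 1 of the 3 pairs was left out of this fit, or when the length and GC trend was also removed.

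Between the carriers, hetX753 over hetL1002P, none of the 10 members passed edgeR's test, where 0.115% of genes did (0.0616% higher and 0.0539% lower), and 1 (Cat) had an unadjusted p under 0.05, as did 8.24% of all tested genes. DESeq2 and limma-voom called 0 members. The median was -0.02, with 5 of 10 below 0, and library ranges did not overlap for 3 members, all higher in hetX753 (Cat, Gstm1 and Gstm2), against 7.44% of tested genes in that direction and 6.98% in the lower one. For all 10 members the 95% interval of the difference lay within a 2-fold change. The joint test of any difference between the 3 genotypes called 0 members in edgeR, against 0.216% of genes, with an unadjusted p under 0.05 for 4 and the smallest adjusted p, 0.11, for Cat. The share of all genes with an unadjusted p under 0.05 was not computed for the joint test. Comparisons that use the same WT or hetL1002P libraries are not independent of each other.

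**Figure D4:**
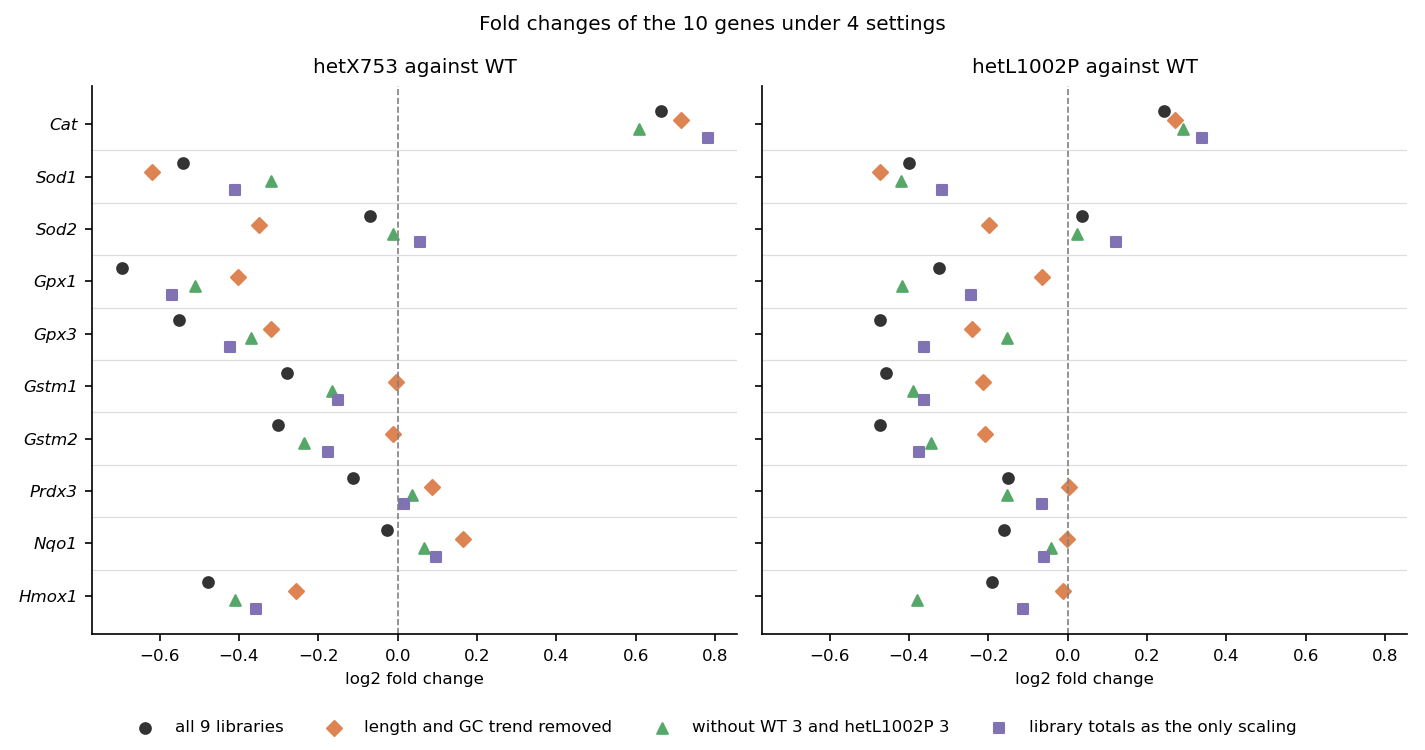
Log2 fold change of each enzyme for hetX753 over WT and hetL1002P over WT under 4 settings: as reported with all 9 libraries, with the length and GC trend removed, without WT 3 and hetL1002P 3, and with library totals as the only scaling. Cat in hetX753 over WT keeps to 0.61 to 0.78, while Gstm1 and Gstm2 in hetX753 over WT are at -0.28 and -0.30 as reported and at -0.00 and -0.01 with the trend removed.

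The other genes of these pathways were read from 7 lists holding 112 genes, of which 105 were tested. None passed edgeR's test in any comparison; at an unadjusted p under 0.05 there were 25 in hetX753 over WT (7 higher, 18 lower), 9 in hetL1002P over WT and 8 in hetX753 over hetL1002P. These are 23.8%, 8.57% and 7.62% of the 105, beside 20.9%, 7.96% and 8.24% of all tested genes. DESeq2 called 6 in hetX753 over WT (Mgst3, Gsto1, Gsta4, Pxmp2, Pxmp4 and Mafk), which is 5.71% of the 105 beside 5.63% of all genes, 0 in hetL1002P over WT and 1 in hetX753 over hetL1002P (Srxn1, where 1.06% of all genes passed), and limma-voom called 0 in each. Without both WT 3 and hetL1002P 3, edgeR called Srxn1 in hetX753 over WT and Srxn1 and Osgin1 in hetX753 over hetL1002P, where 0.722% of all genes passed.

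The 10 other peroxide and superoxide enzymes were all below 0 for hetX753 over WT, with a median log2 fold change of -0.33, and all below 0 for hetL1002P over WT, with a median of -0.28. With the length and GC trend removed the medians were -0.11 and -0.12, with 8 of 10 below 0 in each. Prdx1, a cytosolic peroxiredoxin, averaged 166 ± 16.5 CPM in hetX753, 187 ± 49.4 CPM in hetL1002P and 236 ± 62.1 CPM in WT (SD, n = 3 each), a log2 fold change of -0.51 for hetX753 over WT (adjusted p = 0.21). Prdx5, found in mitochondria, peroxisomes and cytosol, was at -0.42, and Ccs, the copper chaperone of Sod1, at -0.34 for hetX753 over WT.

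Of the 22 other glutathione transferases listed, 16 were tested, with 15 below 0 and a median of -0.46 for hetX753 over WT, and 14 below 0 and a median of -0.31 for hetL1002P over WT. With the length and GC trend removed the medians were -0.22 and -0.10. Gsta4, which conjugates the lipid peroxidation product 4-hydroxynonenal, averaged 8.34 ± 0.557 CPM in hetX753, 11.7 ± 1.64 CPM in hetL1002P and 12.5 ± 1.30 CPM in WT (SD, n = 3 each). The hetX753 libraries did not overlap the others for Gsta4, with a log2 fold change of -0.58 over WT (edgeR adjusted p = 0.11). Gsto1, the omega-class transferase, was at -0.68 (adjusted p = 0.121) and Mgst3, a microsomal transferase, at -0.68 (adjusted p = 0.134) for hetX753 over WT, and Mgst3 was at -0.57 for hetL1002P over WT.

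In the fit as reported, the remaining lists had medians nearer 0 for hetX753 over WT. The median log2 fold change was -0.12 for 13 genes of glutathione synthesis and reduction, -0.03 for 10 of the thioredoxin system, 0.06 for 16 of Nrf2 regulation and targets, -0.03 for 9 of NADPH supply and -0.01 for 31 peroxisome genes. For hetL1002P over WT these medians were -0.03, -0.11, -0.06, -0.14 and -0.05. With the length and GC trend removed, the medians for hetX753 over WT were, in the same order, -0.23, -0.04, 0.01, -0.03 and 0.03. Glutathione synthesis and reduction thus lay beside the other glutathione transferases (-0.22) once the trend was removed. Without both WT 3 and hetL1002P 3 the medians for hetX753 over WT were -0.04, -0.05, 0.08, -0.20 and 0.04. Gclc, the catalytic subunit of the first enzyme of glutathione synthesis, was at 0.42 for hetX753 over WT (adjusted p = 0.219), and Glrx3, a glutaredoxin, was at -0.56. Ggt7, of the same list, was at -0.79 for hetX753 over WT (adjusted p = 0.18), from means of 0.968 CPM in hetX753 and 1.68 CPM in WT. Srxn1, sulfiredoxin, which restores overoxidised peroxiredoxins, had 39.9, 35.6 and 46.3 CPM in hetX753 libraries, 24.9, 26.4 and 29.2 CPM in hetL1002P libraries and 26.4, 25.0 and 34.2 CPM in WT libraries. All hetX753 libraries for Srxn1 were above all others, with log2 fold changes of 0.51 over WT (adjusted p = 0.133) and 0.60 over hetL1002P (adjusted p = 0.224).

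Sesn3, a sestrin, was at 0.90 for hetX753 over WT (adjusted p = 0.165) and 1.11 for hetL1002P over WT (adjusted p = 0.579), from means of 1.85 CPM in hetX753, 2.12 CPM in hetL1002P and 0.973 CPM in WT. Txn1, also on the thioredoxin list, went the other way, at -0.47 for hetX753 over WT (adjusted p = 0.184). It was at -0.47 for hetL1002P over WT as well (adjusted p = 0.579). Among genes of the Nrf2 list, Mafk, a small Maf partner of Nrf2, was at 0.58 for hetX753 over WT (adjusted p = 0.121), Aox1, aldehyde oxidase, at 0.40 and Osgin1 at 0.22. Of the NADPH list, Taldo1 and Pgd, enzymes of the pentose phosphate pathway, were at -0.39 and -0.29, and Me3, the mitochondrial malic enzyme, at 0.10. In the peroxisome, where catalase acts, Pxmp4 was at 0.49 (adjusted p = 0.121), Pxmp2 at -0.61 (adjusted p = 0.126) and Acaa1a, a thiolase of fatty acid oxidation, at -0.46 (adjusted p = 0.174) for hetX753 over WT. Pxmp2 and Pxmp4, both peroxisomal membrane proteins, thus had opposite signs, and the peroxisome list as a whole had 14 genes above and 17 below 0, beside the higher Cat.

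**Figure D5:**
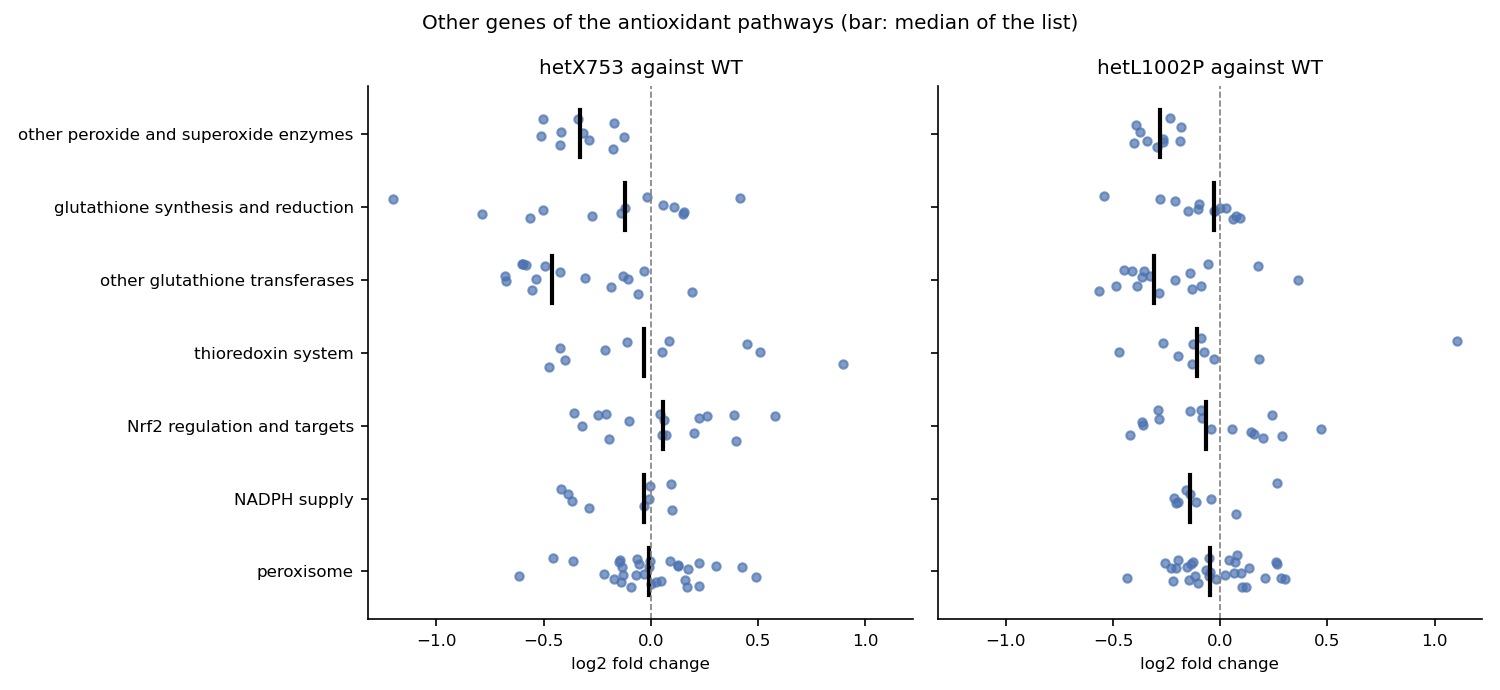
Log2 fold change of every tested gene in the 7 pathway lists for hetX753 over WT and hetL1002P over WT, with a line at each list's median. The other glutathione transferases (median -0.46 and -0.31) and the other peroxide and superoxide enzymes (median -0.33 and -0.28) lie mostly below 0, and no gene shown passed the threshold.

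Genes most like Cat and Gstm2 across the 9 libraries were found by the root mean square difference of centred log2 CPM, over 11110 genes averaging at least 1 CPM. For Cat the nearest were Asb13 at 0.0718, Eif4g3 at 0.0785, Pgm2l1 at 0.0801, Bmpr1a at 0.0832 and Pde4dip at 0.0844, against a median of 0.371 over all genes considered. Asb13 averaged 23.3 ± 0.484 CPM in hetX753, 17.8 ± 2.01 CPM in hetL1002P and 15.4 ± 1.61 CPM in WT (SD, n = 3 each). This is the order seen for Cat, which follows from choosing Asb13 by its nearness to Cat in the same libraries. For Gstm2 the nearest were Frmd8 at 0.0967, Fgf7 at 0.105, Tagln2 at 0.108, Zfyve21 at 0.117 and Gstm1 at 0.121, against a median of 0.309. The nearness is a description over libraries that share depth and composition.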

How the data were processed

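Gastrocnemius RNA of 9 libraries (3 per genotype) was sequenced, and the authors deposited raw read counts per gene symbol; per the submitters' processing notes the tools were TopHat2 2.0.14, Bowtie2 2.2.6 and featureCounts 1.4.6 from Subread, with build mm10. The kit did not mark strand. Groups were taken from the sample labels. Counts were tested with edgeR 4.0.16 in R 4.3.3 (filterByExpr, TMM scaling, robust quasi-likelihood fit on genotype over all 9 libraries, 6 residual degrees of freedom), adjusted over 12989 genes. Standard errors were the log2 fold change over the root of its F. Alternatives used DESeq2 1.42.0, limma 3.58.1 (voom), other scalings and filters, replicate blocks, removal of a length and GC trend (splines with 5 degrees of freedom each) and left-out libraries. The fits were tested on simulated data.

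Members and gene lists were chosen with earlier results of these data known. Named pathway genes were the up to 3 per list with the smallest joint p, and the nearest-pattern genes the 5 closest to Cat and to Gstm2. Annotation was GENCODE release M21 (GRCm38, the same assembly as mm10), and start regions came from RefSeq with Python 3.11.15. Same-numbered WT and hetL1002P libraries deviated together (r = 0.27, 0.342 and 0.485), all over the bound of 0.1 set for pairing. Those of hetX753 were not over it in every pair with either genotype. For hetX753, r was 0.069, 0.146 and -0.122 with WT, and -0.161, 0.00968 and -0.262 with hetL1002P. Some differently numbered pairs were over the bound too, among them hetL1002P 2 with WT 1 (0.19) and hetX753 1 with hetL1002P 3 (0.27). The other differently numbered pairs of WT and hetL1002P were at -0.428 to 0.0513. Each library was centred on the mean of its genotype, so the 3 values of a set are not independent. WT 3 and hetL1002P 3 also lay apart together on the leading principal component. Libraries of 1 genotype differed beyond counting error (chi-square over its degrees of freedom, 14.9 to 68.5).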

Additional observations from a re-analysis of the deposited data

How the results depend on the processing

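Each of the 30 fold changes of members was recomputed under 12 alternatives; of 360 values 335 kept their direction and side of the threshold, 14 changed sign, 5 lost a call and 6 gained one. Leaving out 1 library each gave 270 values, of which 252 kept both, 10 changed sign, 7 lost a call and 1 gained one. Causes were not tested. Members called in hetX753 over WT (1 as reported) were 2 with DESeq2 and 2 without both WT 3 and hetL1002P 3. They were 0 with limma-voom, with library totals, with at least 1 CPM in 3 libraries, with the replicate block in all 9 libraries and with the replicate block on the 2 genotypes alone. Leaving out 1 library gave 0 to 2. The Cat adjusted p was 0.0549 with limma-voom, 0.0927 with library totals, 0.0529 with at least 1 CPM in 3 libraries, and 0.0565 and 0.063 with those blocks. It was 0.104, 0.152 and 0.159 without WT 1, 2 or 3, 0.101 without hetL1002P 1, and 0.103, 0.154 and 0.243 without hetX753 1, 2 or 3. Members called in hetL1002P over WT (0) were 4 with the replicate block on the 2 genotypes alone, and 0 with the block in all 9 libraries. In the joint test (0 members) 1 was called without both WT 3 and hetL1002P 3, and 0 to 1 with a library left out. The share of all genes called was not computed for these joint fits, so these counts have no background to be read against.

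All genes called in hetX753 over WT (66) were 660 with DESeq2, 31 with library totals, 340 without both libraries, 254 with the 2 genotypes alone, 106 with the replicate block on them, 164 with that block and the length and GC trend removed, and 0 to 669 with a library left out. In hetL1002P over WT (0) they were 5 with DESeq2, 2 with limma-voom, 2 with no filter, 2 without both libraries, 1 with the trend removed, 635 with the replicate block on the 2 genotypes alone, 1 with that block and the trend removed, and 0 to 1 with a library left out. A block fit added after seeing the data, without pair 1, 2 or 3, called 30, 4 and 227. In hetX753 over hetL1002P (15) they were 138 with DESeq2, 38 with no filter, 31 with the replicate block in all 9 libraries, 39 with the trend removed, 95 without both libraries, 5 with the 2 genotypes alone, 2 with the replicate block on them, 2 with that block and the trend removed, and 0 to 19 with a library left out.

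Sign changes occurred for Sod1, Sod2, Gpx3, Prdx3 and Nqo1, none of them called in any setting in the comparison where its sign changed. For hetX753 over WT, library totals gave Sod2 0.0556, Prdx3 0.0164 and Nqo1 0.0974. With the trend removed Prdx3 was 0.0854 and Nqo1 0.166, and with the replicate block as well 0.0912 and 0.168. Without both libraries Prdx3 was 0.0356 and Nqo1 0.0675. For hetL1002P over WT the trend removed gave Sod2 -0.197 and Prdx3 0.00445, and with the replicate block as well -0.209 and 0.00681. Sod1 in hetX753 over hetL1002P was 0.1002 without both libraries. With 1 library left out, hetX753 over WT ranged from -0.190 to 0.0336 for Prdx3 (above 0 without WT 3) and from -0.0844 to 0.0652 for Nqo1 (above 0 without WT 3 or hetX753 2). In hetL1002P over WT Sod2 ranged from -0.0372 to 0.0915 (below 0 without WT 2 or hetL1002P 3). In hetX753 over hetL1002P, Sod1 ranged from -0.271 to 0.102 (above 0 without hetL1002P 3), Gpx3 from -0.367 to 0.175 (above 0 without hetL1002P 1 or hetX753 2) and Prdx3 from -0.0341 to 0.190 (below 0 without hetL1002P 1 or 2). With a library left out, its genotype was fitted from 2. Depth limits Hmox1 most, at 123 to 271 counts.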

Other observations

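Sod2 shares 21% of the 50-base stretches of its annotated transcripts with other genes, among them Rps6ka2, which averaged 198 CPM over the 9 libraries, so part of its reads may be assigned elsewhere. Of 7 erythroid markers 3 had counts, and the summed level was 4.62 to 7.98 CPM in hetX753 libraries, 4.39 to 12.0 CPM in hetL1002P libraries and 4.54 to 7.40 CPM in WT libraries, while the globin genes Hba-a1, Hba-a2, Hbb-bs and Hbb-bt were listed at 0 in all 9 libraries. The summed levels of slow fibre markers (4531 to 5702 CPM in hetX753, 4771 to 7247 CPM in hetL1002P and 4341 to 7052 CPM in WT) and of endothelial markers (190 to 205 CPM in hetX753, 155 to 214 CPM in hetL1002P and 182 to 221 CPM in WT) overlapped in all 3 genotypes. Adipocyte markers summed to 239 to 491 CPM in hetX753, 201 to 239 CPM in hetL1002P and 300.3 to 472 CPM in WT, and fibroblast markers to 449 to 554 CPM in hetX753, 388 to 944 CPM in hetL1002P and 599 to 731 CPM in WT. The adipocyte sum was thus lower in every hetL1002P library than in any WT library. The fibroblast sum was lower in every hetX753 library than in any WT library. The part of these cells in the member values was not tested. No marker gene passed edgeR's test.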
